A study of Homo sapiens with 12 samples.

Results

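MCL1, BAK1, HRK and DIABLO encode 4 regulators of cell death at the mitochondrion, and they were taken by gene name from a table of 4988 genes that the authors had selected as differing in these same samples. The labels call the tissue a xenograft and the cell line Hep3B, which derives from a human hepatocellular carcinoma and is known to lack functional p53; the series title speaks of Hep3B cells. A bufotalin group and a control group were compared, each with 3 total RNA and 3 small RNA libraries. Bufotalin is a bufadienolide of toad venom, a class of cardiac glycosides that bind the sodium pump. Both groups carry the same line. Dose, time, the control's vehicle, the host animal and whether a replicate is 1 animal are not given in the sources used here. A p-value thus measures the spread between libraries alone, which may be technical.

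In intrinsic apoptosis, proteins of the BCL2 family decide whether the outer mitochondrial membrane is opened. BAK1 is an effector that forms pores, MCL1 is an anti-apoptotic member that binds BAK1 and BH3-only proteins, and HRK (harakiri) is a BH3-only protein that binds anti-apoptotic members. Once the membrane opens, cytochrome c and DIABLO (also called SMAC) leave the mitochondrion, and DIABLO relieves caspases of inhibition by IAP proteins. MCL1 is a short-lived protein, and many liver cancers depend on it for survival.

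In the bufotalin libraries MCL1, BAK1 and HRK mRNA rose, to 1.75, 1.82 and 2.22 times the control mean in FPKM, and DIABLO fell to 0.271 times the control mean. FPKM, the unit the authors deposited, scales fragments by gene length and library size. The anti-apoptotic member of the group and 2 of its pro-apoptotic members were therefore higher, and the other pro-apoptotic member was lower. The row named DIABLO carries an identifier that the gene reference does not pair with that symbol, a limit described below. All 4 passed limma's test with Benjamini-Hochberg adjustment, as did 93.2% of the 4273 genes tested. The groups did not overlap for any of the 4, nor for 92.5% of tested genes (43.8% higher and 48.7% lower in the bufotalin libraries). A higher value passed in 44.3% of tested genes and a lower value in 48.8%, so that passing does not set the 4 genes apart in this selected table.

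The stretches of 300 bases around the starts of BAK1, HRK and DIABLO are shown because these genes moved in both directions. They run from 250 bases before to 50 bases after the RefSeq start (GRCh38.p14, all on the minus strand), and a MCL1 stretch is not shown. BAK1 lies at chr6:33580227-33580526, HRK at chr12:116881392-116881691 and DIABLO, at the outermost of its 4 listed starts, at chr12:122227407-122227706. Capitals mark matches, on either strand, to the GC box GGGCGG, the CCAAT box CCAAT, the core of the cAMP response element TGACG, the full element TGACGTCA, the TATA box TATAAA, the E-box CACGTG and the CArG box; the core is also part of the full one.
BAK1: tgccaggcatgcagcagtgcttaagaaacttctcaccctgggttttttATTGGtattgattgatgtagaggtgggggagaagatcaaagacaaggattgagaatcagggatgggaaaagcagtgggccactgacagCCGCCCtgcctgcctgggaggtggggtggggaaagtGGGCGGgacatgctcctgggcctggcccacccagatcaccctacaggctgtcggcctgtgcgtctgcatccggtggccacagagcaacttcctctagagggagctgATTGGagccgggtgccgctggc
HRK: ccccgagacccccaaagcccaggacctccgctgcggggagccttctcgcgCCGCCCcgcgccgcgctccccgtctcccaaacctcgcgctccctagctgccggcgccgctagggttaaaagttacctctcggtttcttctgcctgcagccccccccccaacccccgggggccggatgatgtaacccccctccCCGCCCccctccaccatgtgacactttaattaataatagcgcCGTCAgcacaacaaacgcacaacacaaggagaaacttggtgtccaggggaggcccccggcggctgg
DIABLO: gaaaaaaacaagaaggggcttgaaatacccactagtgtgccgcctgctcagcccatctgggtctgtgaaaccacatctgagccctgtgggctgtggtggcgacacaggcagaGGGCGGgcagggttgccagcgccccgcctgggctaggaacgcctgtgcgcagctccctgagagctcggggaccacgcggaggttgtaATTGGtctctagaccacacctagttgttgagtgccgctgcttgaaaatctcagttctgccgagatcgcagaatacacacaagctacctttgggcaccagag
The GC box was found in all 3 stretches, with 2 matches each for BAK1 and HRK and 1 for DIABLO, and in 45.0% of 35116 promoters of the same length. The CCAAT box was found for BAK1 with 2 matches and for DIABLO with 1 match, and in 34.6% of all promoters. HRK had 1 core of the cAMP response element, which 24.6% of promoters hold. No match to the full element, the TATA box, the E-box or the CArG box lay in these windows; 1.85%, 11.5%, 7.26% and 1.29% of all promoters hold them. GC content was 58.7% for BAK1, 66.3% for HRK and 58.3% for DIABLO, against a median of 58.7% over all promoters.

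MCL1 (ENSG00000143384, GRCh38 chromosome 1, 150560202 to 150579738), the anti-apoptotic member, measured 134, 152 and 135 FPKM in bufotalin replicates 1, 2 and 3, against 90.7, 70.4 and 79.5 FPKM in control replicates 1, 2 and 3. Every bufotalin library lay above every control library, and the lowest bufotalin value was 1.47 times the highest control value. The means were 140.1 ± 10.3 FPKM in bufotalin and 80.2 ± 10.2 FPKM in control libraries (SD, n = 3 each). On the log2(FPKM + 1) scale the fold change of bufotalin over control was 0.80 (SE 0.13, 95% interval 0.52 to 1.09), with an adjusted p of 0.000251 by limma. The median fold change of all tested genes on that scale was 0.13. MCL1 was an abundant transcript of the table, at the 95.5th percentile of control means. Its change held rank 558 by size among the 1894 genes that rose.

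BAK1 (ENSG00000030110, chromosome 6, 33572547 to 33580293), the pore-forming effector, measured 20.4, 18.4 and 16.1 FPKM in bufotalin replicates 1 to 3, against 9.34, 8.51 and 12.3 FPKM in control replicates 1 to 3. The groups did not overlap, though control replicate 3 came within 1.31 times of the lowest bufotalin library. BAK1 averaged 18.3 ± 2.15 FPKM in bufotalin and 10.05 ± 1.99 FPKM in control libraries (SD, n = 3 each). The log2 fold change was 0.81 (SE 0.15, 95% interval 0.48 to 1.15; limma adjusted p 0.000624). Its control level stood in the middle of the table, at the 49.4th percentile.

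HRK (ENSG00000135116, chromosome 12, 116856144 to 116881446), the BH3-only member, was a low transcript, with 3.11, 3.83 and 3.63 FPKM in bufotalin replicates 1 to 3, against 1.17, 1.83 and 1.76 FPKM in control replicates 1 to 3. All bufotalin libraries lay above all control libraries, and control replicate 1 was the lowest of the 6. The means were 3.52 ± 0.371 FPKM in bufotalin and 1.59 ± 0.361 FPKM in control libraries (SD, n = 3 each). The log2 fold change was 0.81 (SE 0.14, 95% interval 0.51 to 1.12; limma adjusted p 0.000343). At this level the pseudocount of 1 shrinks the change: with a pseudocount of 0.01 the log2 fold change was 1.17, against 0.81 for MCL1 and 0.88 for BAK1. Quantile normalization gave HRK 1.45, still called.

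DIABLO (listed as ENSG00000284934, chromosome 12, 122207662 to 122227534), the IAP antagonist, measured 0.471, 1.54 and 0.805 FPKM in bufotalin replicates 1 to 3, against 2.98, 3.24 and 4.20 FPKM in control replicates 1 to 3. Every bufotalin library lay below every control library, and the lowest control value was 1.93 times the highest bufotalin value. DIABLO averaged 0.940 ± 0.549 FPKM in bufotalin and 3.47 ± 0.643 FPKM in control libraries (SD, n = 3 each). The log2 fold change was -1.23 (SE 0.20, 95% interval -1.69 to -0.78; limma adjusted p 0.000366). It was -2.02 with a pseudocount of 0.01 and -0.53, with an adjusted p of 0.0399 by limma, under quantile normalization. The bufotalin libraries spread widely, with an SD of 58.4% of their mean, compared with 18.5% in control libraries. Bufotalin replicate 2 held the highest of the 3 values.

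**Figure D1:**
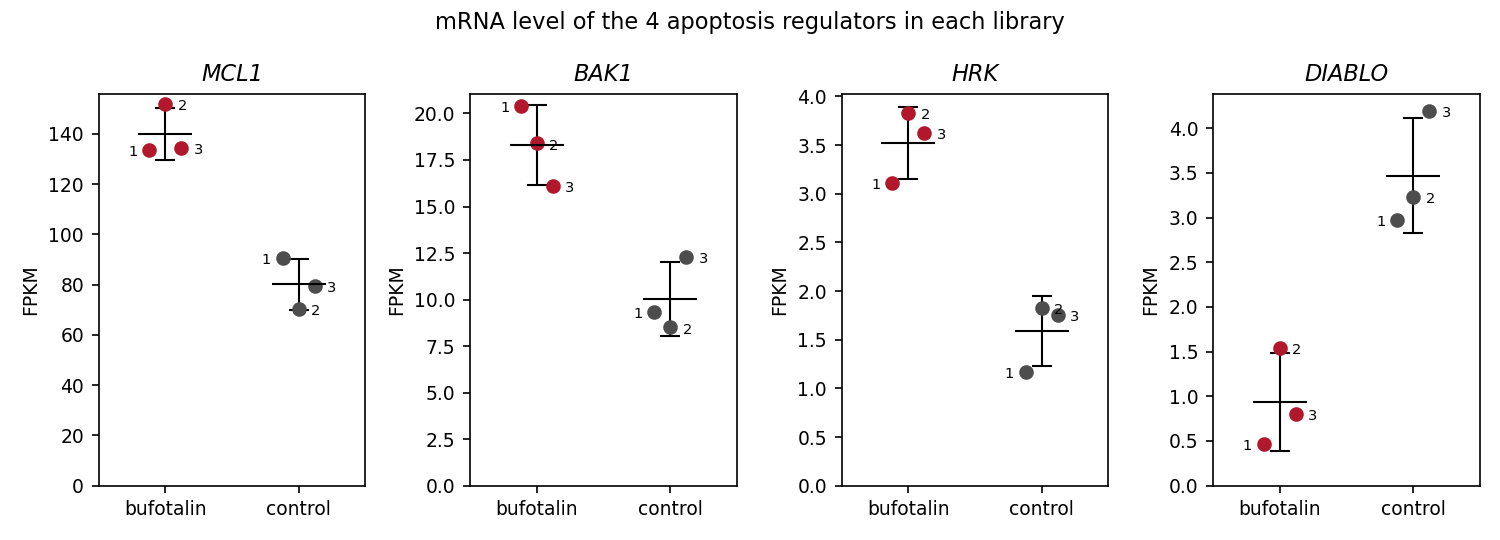
FPKM (vertical axes, from 0) of MCL1, BAK1, HRK and DIABLO in each bufotalin (red) and control (grey) library, numbered by replicate, with the mean and SD of 3 libraries in black. The groups do not overlap in any panel; MCL1, BAK1 and HRK are higher and DIABLO is lower in the bufotalin libraries.

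The identity of the DIABLO row carries a limit. The authors' table gives the name DIABLO to ENSG00000284934, an identifier to which the gene reference gives no symbol, whereas the reference pairs DIABLO with ENSG00000184047, which was not analysed here. The listed span of 19873 bases begins at the same base as the RefSeq gene DIABLO (122207662 to 122227456) and ends 78 bases beyond it. The values may therefore not stand for the usual DIABLO gene model alone, and reads shared between overlapping gene models cannot be told apart. The row also shares 17006 bases with that of B3GNT4, a glycosyltransferase gene, which measured 0.255, 0.260 and 0.647 FPKM in bufotalin replicates 1 to 3, against 0.753, 0.794 and 1.73 FPKM in control replicates 1 to 3. B3GNT4 fell (log2 fold change -0.57, limma adjusted p 0.0165), but its bufotalin mean of 0.387 FPKM was under the test's minimum of 0.5 FPKM. Its part in the DIABLO value was not tested.

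For MCL1 the listed span of 19537 bases is longer than the RefSeq gene of 5053 bases (150574558 to 150579610). It shares 736 bases with ADAMTSL4, which encodes a matrix-associated protein. ADAMTSL4 measured 3.78, 3.17 and 3.21 FPKM in bufotalin replicates 1 to 3, against 13.0, 11.4 and 12.9 FPKM in control replicates 1 to 3, and so fell while MCL1 rose. For BAK1 and HRK no other row of the table overlapped. The table gives 1 value per gene, so the long anti-apoptotic and short pro-apoptotic splice forms known for MCL1 were not resolved.

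On the FPKM scale the 4 genes spanned 0.471 to 152. In all 3 bufotalin libraries the order was MCL1, BAK1, HRK, DIABLO, and in all 3 control libraries it was MCL1, BAK1, DIABLO, HRK. The lower pair thus changed places, with the limit on the DIABLO row given above. HRK was 6.61, 2.48 and 4.50 times DIABLO in bufotalin replicates 1 to 3, against 0.394, 0.565 and 0.419 times DIABLO in control replicates 1 to 3. The ratio of the anti-apoptotic MCL1 to the effector BAK1 overlapped between groups, at 6.55, 8.26 and 8.35 in bufotalin replicates 1 to 3 and 9.71, 8.28 and 6.46 in control replicates 1 to 3. Its mean was 7.72 ± 1.01 in bufotalin and 8.15 ± 1.63 in control libraries (SD, n = 3 each), so the spread between replicates exceeded the difference. MCL1 over HRK also overlapped, with 37.1 to 43.0 in bufotalin and 38.5 to 77.4 in control libraries, where control replicate 1 gave the highest ratio.

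**Figure D2:**
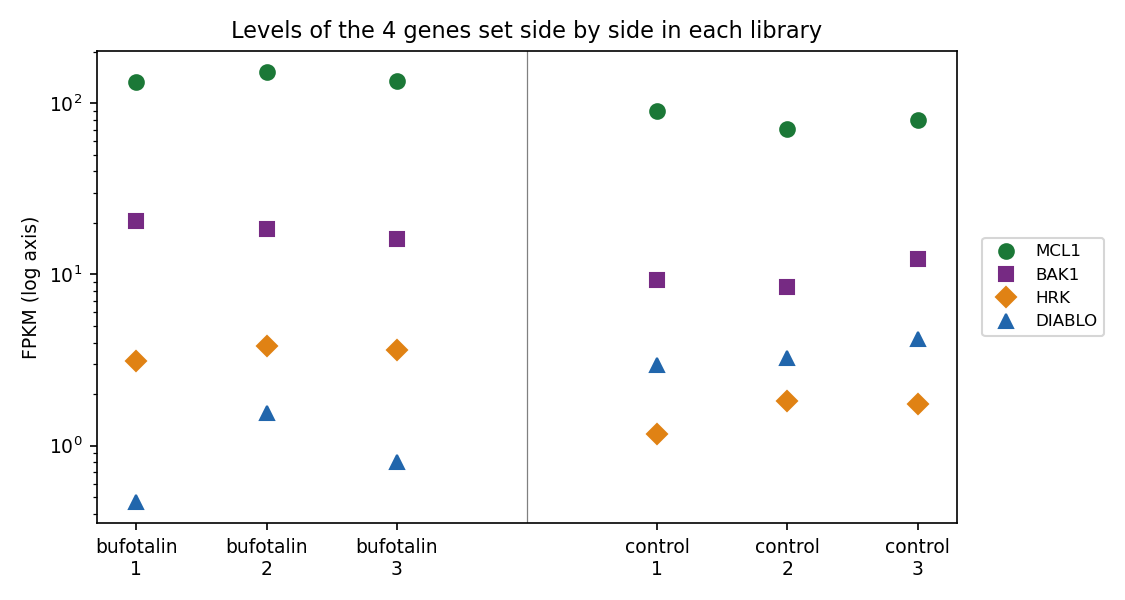
FPKM on a log axis of the 4 genes in each library, bufotalin libraries left of control libraries. MCL1 is highest and BAK1 next in all 6 libraries, while HRK lies above DIABLO in the 3 bufotalin libraries and below it in the 3 control libraries.

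Profiles most like each gene were sought over the 6 libraries, as the smallest Euclidean distance between centred log2(FPKM + 1) values among genes averaging 1 FPKM or more. For MCL1 they included CLK1 (distance 0.17) and ZNF350 (0.20). For BAK1 they were CSRNP1 (0.10), MTFR2 (0.12) and FAM129B (0.16), and for HRK they were WBP4 (0.07), TMEM201 (0.12) and MTX3 (0.14). DIABLO had no profile as near: the closest were DZIP1 (0.28), CYBC1 (0.30) and TMEM164 (0.31). These distances describe 6 libraries in 2 groups.

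The apoptosis pathway around the 4 genes was followed in 10 lists with 73 genes, of which 18 were in the selected table and the other 55 were not analysed here. Of 17 genes that passed the minimum of 0.5 FPKM, 11 rose and 6 fell, the 4 genes included. Without them, 8 rose and 5 fell of 13. The median log2 fold change of these 13 was 0.43, compared with 0.13 over all tested genes. The latter median lay between -0.27 and 0.31 under the other settings, and the difference was not tested. Because 93.2% of all tested genes were called, the number called is no result about the lists.

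Among anti-apoptotic BCL2 proteins, BCL2L1, which encodes BCL-XL, measured 19.8, 23.3 and 22.0 FPKM in bufotalin replicates 1 to 3, against 12.9, 13.3 and 19.2 FPKM in control replicates 1 to 3. It rose with MCL1 (log2 fold change 0.51, SE 0.16; limma adjusted p 0.0111), but control replicate 3 nearly reached the lowest bufotalin library. BAK1 was the only analysed member of 3 effectors, and HRK the only one of 8 BH3-only genes. BCL2L13, a BCL2-like protein known as a mitophagy receptor, measured 14.7, 14.0 and 12.7 FPKM in bufotalin replicates 1 to 3, against 32.7, 30.1 and 25.6 FPKM in control replicates 1 to 3, and fell (-1.04, SE 0.12). BCL2L15, which did not reach the minimum and was not tested, averaged 0.158 FPKM in bufotalin and 0.468 FPKM in control libraries.

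Beyond the mitochondrial membrane, CYCS, which encodes cytochrome c, measured 69.7, 98.8 and 71.7 FPKM in bufotalin replicates 1 to 3, against 52.3, 55.5 and 47.7 FPKM in control replicates 1 to 3. It rose (log2 fold change 0.60, SE 0.15), opposite to DIABLO of the same list, but its call was lost under quantile normalization (0.30, limma adjusted p 0.0932). BIRC5, which encodes survivin, an IAP protein with a role in mitosis, measured 29.7, 25.0 and 23.4 FPKM in bufotalin replicates 1 to 3, against 12.4, 8.61 and 6.33 FPKM in control replicates 1 to 3, and rose (1.45, SE 0.21). CASP9, the initiator caspase activated on the apoptosome, measured 28.4, 20.3 and 18.4 FPKM in bufotalin replicates 1 to 3, against 84.0, 47.0 and 50.6 FPKM in control replicates 1 to 3. CASP9 fell (-1.37, SE 0.24), with control replicate 1 far above the other libraries. Of the substrates of DNA breakdown, 0 of 5 genes were in the table.

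Of 6 tested genes for death receptors and their adaptors, 4 rose and 2 fell. TNFRSF10A, a receptor for the death ligand TRAIL, measured 27.4, 27.7 and 30.9 FPKM in bufotalin replicates 1 to 3, against 10.7, 11.1 and 11.8 FPKM in control replicates 1 to 3 (log2 fold change 1.28, SE 0.11). TNFRSF21, also called death receptor 6, measured 3.72, 3.55 and 3.77 FPKM in bufotalin replicates 1 to 3, against 12.2, 10.8 and 12.3 FPKM in control replicates 1 to 3 (-1.44, SE 0.11). TRADD, the adaptor of the TNF receptor, measured 1.12, 1.55 and 1.41 FPKM in bufotalin replicates 1 to 3, against 4.67, 4.10 and 5.05 FPKM in control replicates 1 to 3 (-1.25, SE 0.12). The fall of TRADD was -0.58 under quantile normalization, still called. For all 3 the gap between the groups was wide next to the spread within them. In this selected table the groups did not overlap for 92.5% of tested genes.

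TNFRSF10D, a TRAIL receptor with a truncated death domain that acts as a decoy, rose as well, to 9.71 ± 0.170 FPKM in bufotalin, against 3.52 ± 0.330 FPKM in control libraries (SD, n = 3 each). TNFRSF10B, the other TRAIL death receptor, averaged 57.2 ± 0.600 FPKM in bufotalin and 43.9 ± 6.33 FPKM in control libraries (log2 fold change 0.38), but this call was lost without control replicate 2 (0.31) and under quantile normalization (0.12). TRAF2, an adaptor of TNF receptors, averaged 37.0 ± 3.06 FPKM in bufotalin and 27.2 ± 2.37 FPKM in control libraries (0.43). Its call was lost under quantile normalization (0.25). The TNFRSF10 genes are related in sequence, so their split is uncertain where reads are shared.

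Of 7 listed ubiquitin ligases and deubiquitinases of MCL1, 2 were in the table, and they moved in opposite directions. USP9X, a deubiquitinase known to stabilise MCL1, measured 37.4, 41.3 and 46.2 FPKM in bufotalin replicates 1 to 3, against 73.1, 66.2 and 79.4 FPKM in control replicates 1 to 3, and fell (log2 fold change -0.79, SE 0.12). BTRC, which encodes the substrate receptor of a ubiquitin ligase for MCL1, measured 24.1, 18.5 and 21.8 FPKM in bufotalin replicates 1 to 3, against 10.1, 9.84 and 11.6 FPKM in control replicates 1 to 3, and rose (0.96, SE 0.13). Neither pair of groups overlapped, nor did the groups for 92.5% of all tested genes. Protein was not measured.

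**Figure D3:**
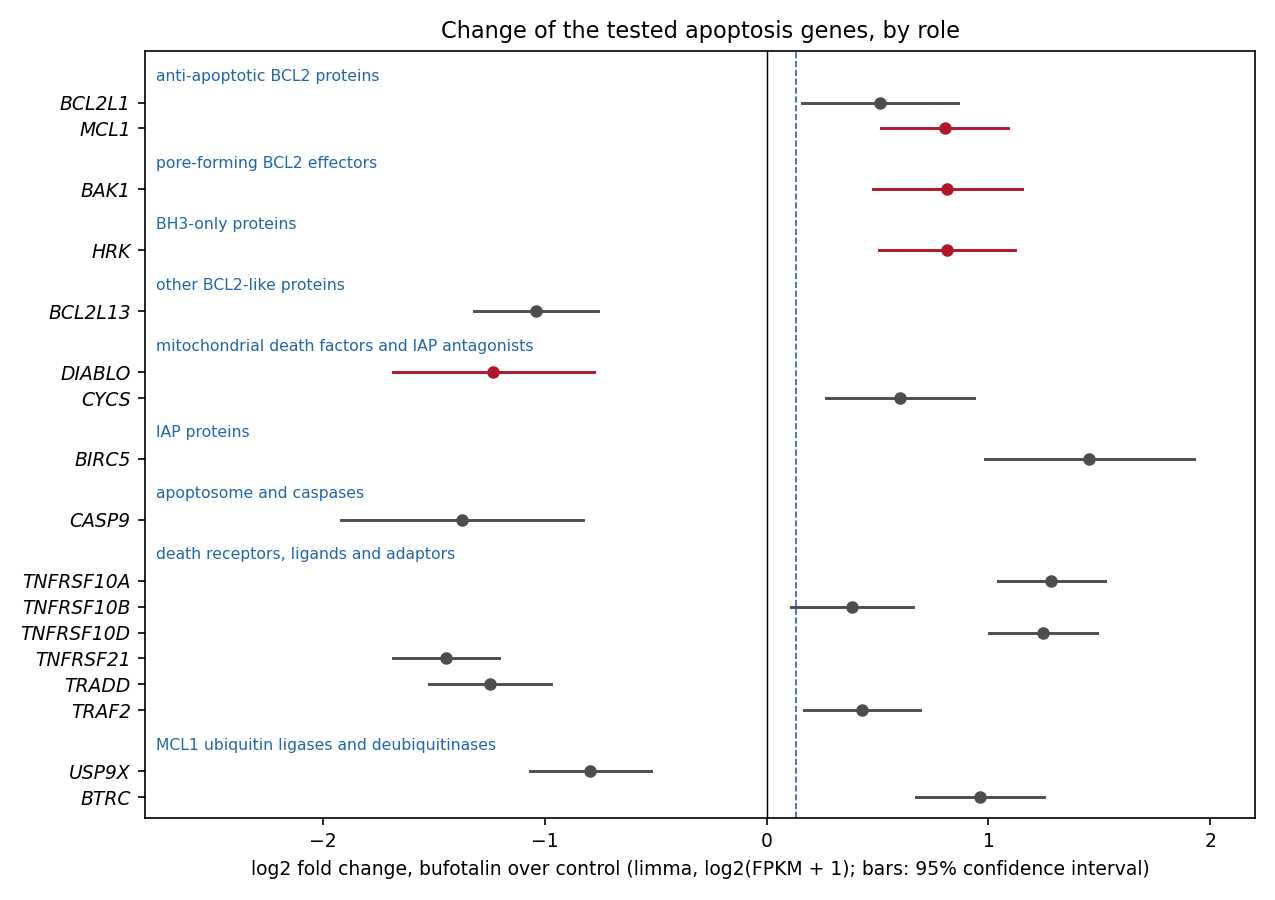
Log2 fold change of bufotalin over control on log2(FPKM + 1) (horizontal axis; points with 95% intervals) for the 17 tested apoptosis genes, grouped by role, with MCL1, BAK1, HRK and DIABLO in red and the median of all tested genes, 0.13, as a dashed line. MCL1, BAK1 and HRK lie near 0.8, DIABLO lies at -1.23, and 11 genes are above 0 and 6 below.

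Small RNA libraries of the same groups were read for 8 miRNAs reported to target MCL1 or BAK1. Their mature sequences are shown because the seed, bases 2 to 8 in capitals, groups them: the 3 miR-29 members share 1 seed, as do both miR-193 members and both miR-125 members (RefSeq, GRCh38.p14).
hsa-miR-29a-3p: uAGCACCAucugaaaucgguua
hsa-miR-29b-3p: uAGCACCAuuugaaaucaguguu
hsa-miR-29c-3p: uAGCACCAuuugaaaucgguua
hsa-miR-101-3p: uACAGUACugugauaacugaa
hsa-miR-193a-3p: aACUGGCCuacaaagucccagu
hsa-miR-193b-3p: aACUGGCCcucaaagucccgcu
hsa-miR-125a-5p: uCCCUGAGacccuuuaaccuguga
hsa-miR-125b-5p: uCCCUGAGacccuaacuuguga
After Benjamini-Hochberg adjustment, edgeR's quasi-likelihood test called 0 of these 8, against 5.66% of 477 miRNAs tested. By edgeR 2 of the 8 had an unadjusted p under 0.05. DESeq2 called 1 of the 8, miR-193b-3p, and 62 of all 477. Library totals were 1869893 to 3339624 counts in bufotalin and 2034422 to 4197636 counts in control libraries. miR-193b-3p, of the list for MCL1, measured 1520, 999.5 and 1343 CPM (counts scaled to the same library total) in bufotalin replicates 1 to 3, against 1099, 6607 and 5063 CPM in control replicates 1 to 3. Control replicate 1 lay within the range of the bufotalin libraries. The log2 fold change was -1.57 with an adjusted p of 0.0961 by edgeR. Without control replicate 1 the miRNA was called, and with any other single library left out it was not.

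miR-29a-3p had the other unadjusted p under 0.05 and pointed the other way. It measured 4036, 3486 and 1779 CPM in bufotalin replicates 1 to 3, against 2063, 2628 and 1335 CPM in control replicates 1 to 3, and the groups overlapped (log2 fold change 0.78, edgeR adjusted p 0.118). miR-101-3p averaged 1476 ± 148 CPM in bufotalin and 1811 ± 372 CPM in control libraries (SD, n = 3 each; -0.16). In the list for BAK1, miR-125b-5p averaged 1521 ± 578 CPM in bufotalin and 1180 ± 360 CPM in control libraries (0.52, edgeR adjusted p 0.310), and miR-125a-5p 2410 ± 1218 CPM in bufotalin and 2204 ± 700 CPM in control libraries (0.22). The others, miR-29b-3p, miR-29c-3p and miR-193a-3p, were at 5.90 to 251 CPM in all 6 libraries and had log2 fold changes of -0.31 to 0.37.

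**Figure D4:**
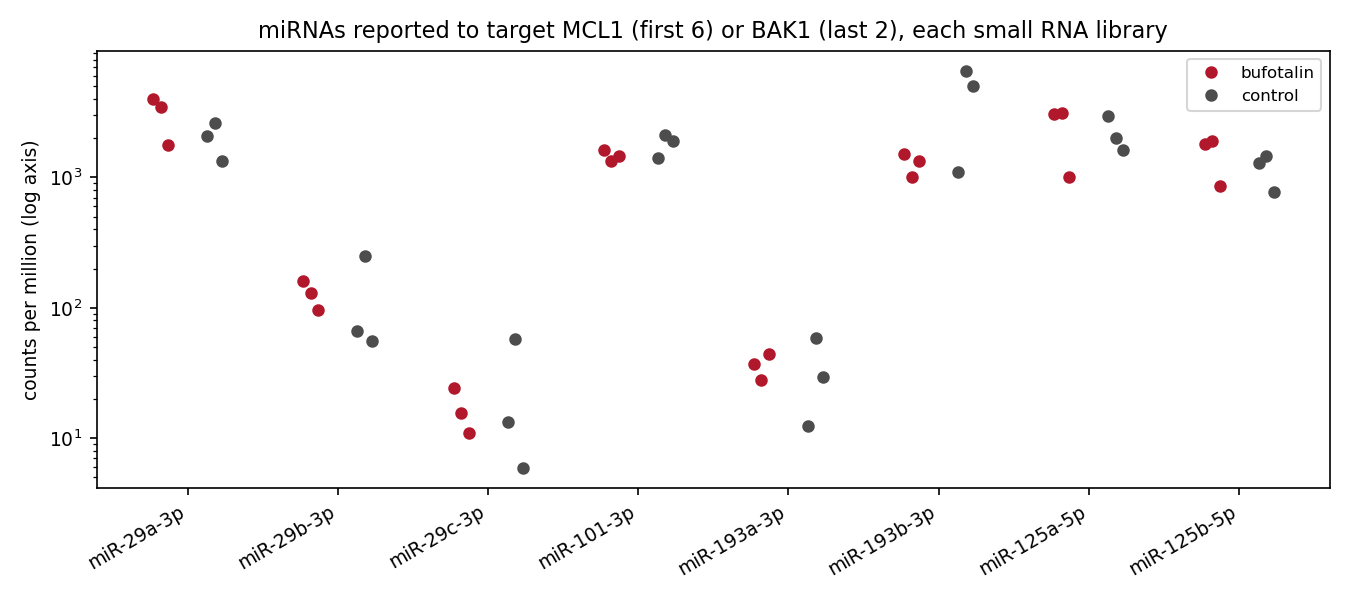
CPM on a log axis of the 8 miRNAs in each bufotalin (red, left) and control (grey, right) small RNA library, with replicates 1 to 3 from left to right. The groups overlap for every miRNA shown; for miR-193b-3p control replicate 1 lies among the bufotalin libraries, and the other control libraries lie above them.

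In the table of lncRNA transcripts, 1 of 536 transcripts belonged to a listed gene: FAS-220, from the locus of the death receptor gene FAS. It measured 6.20, 0 and 1.49 FPKM in bufotalin replicates 1 to 3 and was listed at 0 in the 3 control libraries. It did not pass limma's test (adjusted p 0.0863), which 73.3% of 465 transcripts passed. It reached the minimum of 0.1 FPKM only through the bufotalin libraries. Without bufotalin replicate 2, in which it was listed at 0, it passed (adjusted p 0.00381 by limma). That choice leaves only positive values against control libraries all at 0, so this pass is no support for a change.

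Several genes listed as markers of other cells also differed between the groups, and which cells expressed them was not tested. The 8 fibroblast markers in the table summed to 23.9 to 29.8 FPKM in bufotalin and 84.2 to 88.7 FPKM in control libraries. Most of the control sum came from COL6A1 and COL5A1, which averaged 28.9 FPKM each in control and 6.43 and 7.78 FPKM in bufotalin libraries. The 7 tested all fell, while a lower value passed in 48.8% of all tested genes of this selected table. Of these, PDGFRB and ACTA2 averaged 0.359 and 0.385 FPKM in bufotalin libraries and reached the minimum of 0.5 FPKM only through the control libraries. Another 5 listed fibroblast markers were not analysed here. Of endothelial markers EGFL7 fell, averaging 8.45 FPKM in bufotalin and 32.6 FPKM in control libraries. CDH5 averaged 0.943 FPKM in bufotalin and 0.066 FPKM in control libraries. It reached the minimum for the test only through the bufotalin libraries, so its call is no support for a rise. CSF1R of the leukocyte list rose. HBB, the only erythroid marker in the table, reached 13.4 FPKM in control replicate 3 and was at most 0.552 FPKM elsewhere. Of the other leukocyte markers in the table, both below the minimum for the test, CD14 was at 0.522 to 0.728 FPKM in bufotalin and 0 to 0.076 FPKM in control libraries, and ITGAM was listed at 0 in all bufotalin libraries and at 0.025 to 0.070 FPKM in control libraries. Of 11 markers of the labelled liver line only TF, which encodes transferrin, was in the table, at 0.001 to 0.040 FPKM in bufotalin libraries and listed at 0 in all control libraries. This hepatocyte marker was thus near 0 in all 6 libraries, against the label, and the other 10 markers were not analysed here. The part of other cells in the values of MCL1, BAK1, HRK and DIABLO was not tested, and in such bulk samples fewer cells of a type and less RNA per cell cannot be told apart. Without control replicate 3, the log2 fold changes were 0.80 for MCL1, 0.96 for BAK1, 0.86 for HRK and -1.12 for DIABLO, all still called.

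**Figure D5:**
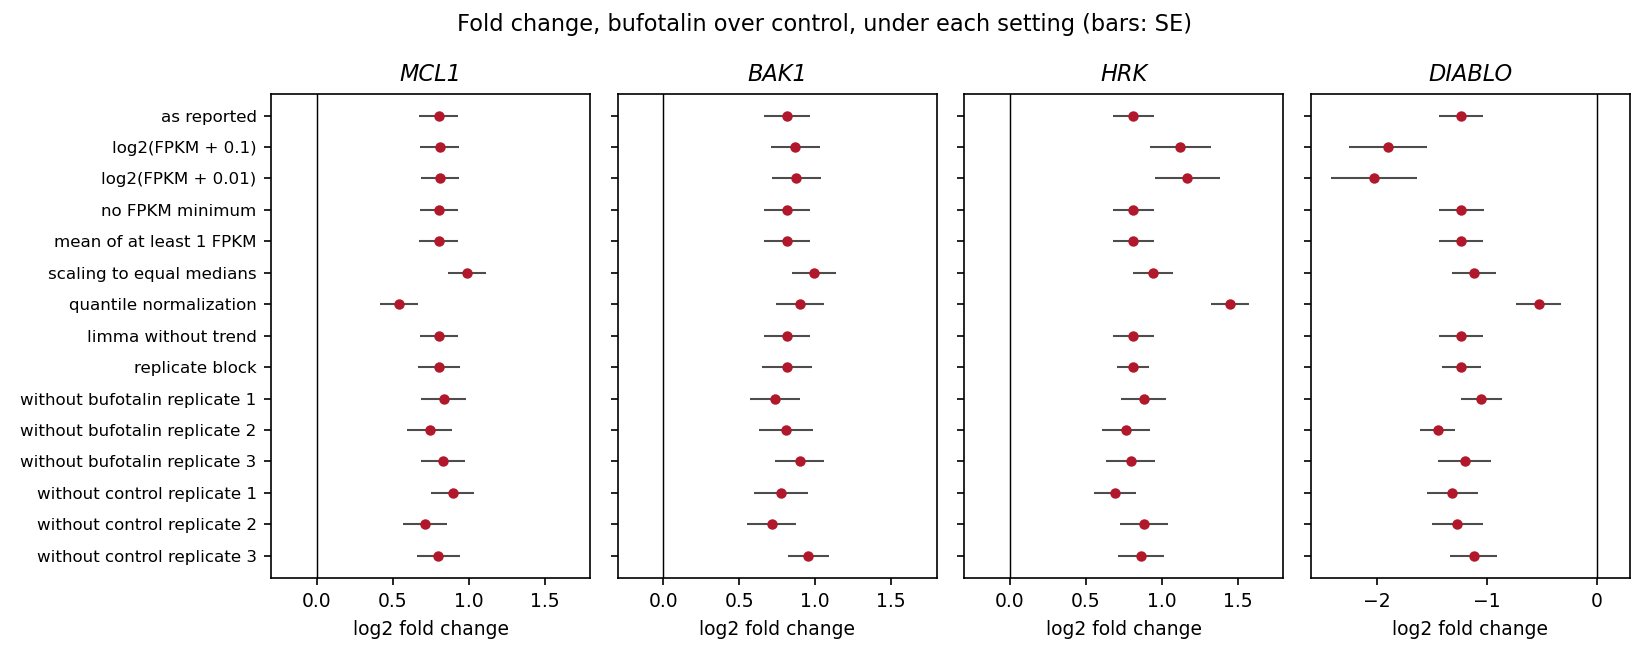
Log2 fold change of bufotalin over control (horizontal axes; bars are SE) of the 4 genes as reported and under 14 other settings. All points of MCL1, BAK1 and HRK lie above 0 and all points of DIABLO below it; MCL1 ranges from 0.54 to 0.99, BAK1 from 0.71 to 0.99, HRK from 0.69 to 1.45 and DIABLO from -2.02 to -0.53.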

How the data were processed

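Per the submitters' processing notes, the build was GRCh38 and the tools named are featureCounts 1.5.0-p3, HISAT2 2.0.5, DESeq2 1.20.0, CASAVA 1.8 and fastp. The roles of these tools, the strandedness of counting and how features were selected are not given in the sources used here. Per the labels' protocols, TRIzol RNA was made into NEBNext Ultra libraries. The authors deposited FPKM values per gene (mRNA) and per transcript (lncRNA) for features they had selected. They deposited read counts per mature miRNA, and beside them the authors gave TPM values, which equalled the count over the column total at a common scale (CPM) (largest difference 4.37e-10).

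Total RNA depth is unknown. Ratios of FPKM values under 0.1 between libraries repeated to 3 decimals in at most 9 of 231 genes of a pair, bufotalin replicates 1 and 2. In that pair 8 ratios lay near the commonest ratio divided by 2 and 4 near it multiplied by 2. Those counts used a wider margin than the count of equal ratios. That pair had the most equal ratios of 15 pairs, and for control replicates 1 and 2 the counts near both values were 0. Steps of whole reads may be present, but this was not settled. Whole reads were not recovered from them, and no intervals for counting error are given. The mRNA test was limma 3.58.1 with a trended and robust eBayes step, on log2(FPKM + 1) of genes averaging 0.5 FPKM or more; for lncRNA it used log2(FPKM + 0.1) and a minimum of 0.1 FPKM. For miRNA counts edgeR 4.0.16 was used (TMM, filterByExpr, robust quasi-likelihood), with DESeq2 1.42.0 as an alternative. Tests were two-sided, over all features, with a threshold of 0.05, and were tested on simulated data. For mRNA the simulation changed a small share of genes, whereas most tested genes of this selected table were called. It thus does not measure the error rate here. R 4.3.3, Python 3.11.15, pandas 2.3.3 and matplotlib 3.10.9 were used. Of 4988 identifiers, 4968 matched the gene reference.

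The 4 genes and the lists were chosen with earlier results of these data known. Every gene of the apoptosis lists that is in the table is named; values per library are given for the 4 genes and, in each apoptosis list, for up to 3 called genes with the largest log2 fold change. The 3 nearest profiles of each of the 4 genes were sought, and 1 of them is not reported here. The alternatives were other pseudocounts, minimums, scalings and variance models, the replicate number as a block, and each library left out.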

Additional observations from a re-analysis of the deposited data

How the results depend on the processing

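MCL1, BAK1, HRK and DIABLO kept their direction and stayed past the threshold under all 14 alternatives. Most tested genes of this selected table passed too, 3256 of 4273 under quantile normalization and 4162 of 4273 after scaling to equal medians. Staying past the threshold thus does not set the 4 genes apart. The median log2 fold change of all tested genes was 0.31 after scaling to equal medians, against 0.13; under that scaling MCL1 had 0.99, BAK1 0.99, HRK 0.94 and DIABLO -1.11. With single libraries left out it lay between -0.27 and 0.18, and MCL1 lay between 0.71 and 0.89, BAK1 between 0.71 and 0.96, HRK between 0.69 and 0.88 and DIABLO between -1.45 and -1.05. Under quantile normalization MCL1 had 0.54, HRK 1.45 and DIABLO -0.53; the cause was not tested. Of the 13 other listed genes, 10 kept direction and call under every alternative. The counts above are for single settings, and the share of all tested genes that held under every alternative was not computed. This number is thus no result about the lists. The exceptions were CYCS, TNFRSF10B and TRAF2. The number of listed miRNAs called was 1 with DESeq2 (62 of all 477) and 1 with no count filter (40 of all 1451). It was 0 to 1 with each library left out, where 6 to 40 of all miRNAs were called. For FAS-220, leaving out single libraries gave an adjusted p by limma of 0.00381 to 0.212. Libraries with the same number did not deviate together over all genes (correlations -0.05 to 0.03, and 2 of 6 libraries correlated best with their own number). With 3 libraries per group this check cannot decide whether libraries of the same number were paired. With the replicate block 3957 mRNAs were called, against 3981, the 4 genes with adjusted p of 0.000797 to 0.00419 by limma, and FAS-220 was not called (0.0800). The low levels of HRK and DIABLO make their fold changes depend on the pseudocount, and the unknown total RNA depth leaves their counting error unstated.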
